A study of Mus musculus with 6 samples.

Results

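Runx2, Sp7, Dlx3, Dlx5, Dlx6, Msx1, Msx2, Atf4 and Twist1 are transcription factors of bone formation and of the pattern of the jaw. They were taken by symbol from a table of 23170 genes, and all 9 were found. The table compares RNA of subchondral bone, the bone under the joint cartilage, from the mandibular condyle, the part of the lower jaw that turns in the temporomandibular joint, between 3 libraries of mice with a sham operation and 3 of mice with partial discectomy, in which part of the joint disc is cut away. All animals were labelled wild type, the operation was on 1 side, bone of the operated joint was used, and the age label gives 6 weeks after the prefix P and 2 weeks after the prefix PO without spelling these out. No label ties a library to a mouse of its own, so the spread may be partly technical. The sample descriptions carry the letters Rctrl in the sham group and LPD in the other, with no explanation. Each letter code follows a number, and the number 6 occurs in both groups; whether it ties these libraries to 1 animal is not said. The series title names Hedgehog signalling in progenitors that carry Gli1, and the comparison asks what the operation does to RNA in this bone.

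Runx2 commits mesenchymal cells to the osteoblast lineage, and Sp7, also called osterix, acts after it. Both are needed for bone to form. Dlx and Msx genes encode homeodomain proteins that give the jaw its upper and lower identity in the embryo and later act in osteoblasts, where Dlx factors activate and Msx factors mostly repress bone genes. Twist1 holds skeletal precursors in an early state and restrains Runx2, and Atf4 drives amino acid supply and late osteoblast genes in cells under stress. The bone of the jaw comes from cranial neural crest that does not use Hox genes.

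The homeobox is the coding part of a Dlx or Msx gene that specifies the DNA-binding homeodomain. The homeoboxes of 4 members are shown because reads of such paralogs could be confused if their sequences were near-identical. They were read from GENCODE M21 transcripts on GRCm38, 5′ to 3′ along the gene, and capitals mark codons 42 to 58 of the 60, which form the helix that touches DNA:
Dlx3 homeobox: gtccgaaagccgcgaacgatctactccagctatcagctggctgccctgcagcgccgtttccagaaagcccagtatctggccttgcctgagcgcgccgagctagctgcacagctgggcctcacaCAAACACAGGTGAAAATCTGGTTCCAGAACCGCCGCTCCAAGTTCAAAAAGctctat
Dlx5 homeobox: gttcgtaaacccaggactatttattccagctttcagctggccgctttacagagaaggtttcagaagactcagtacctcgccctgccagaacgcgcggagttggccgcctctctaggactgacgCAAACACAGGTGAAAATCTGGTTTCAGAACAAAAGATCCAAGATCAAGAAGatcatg
Dlx6 homeobox: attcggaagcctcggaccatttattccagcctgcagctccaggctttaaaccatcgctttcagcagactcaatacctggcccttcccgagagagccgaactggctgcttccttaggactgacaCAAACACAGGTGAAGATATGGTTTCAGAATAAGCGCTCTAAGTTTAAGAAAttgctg
Msx2 homeobox: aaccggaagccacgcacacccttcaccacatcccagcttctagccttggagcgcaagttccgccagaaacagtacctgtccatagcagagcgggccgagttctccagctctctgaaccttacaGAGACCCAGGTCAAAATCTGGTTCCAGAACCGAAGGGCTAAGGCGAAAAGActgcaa

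In the Dlx genes an intron splits the homeobox. It lies at chr11:95121767-95121898 and chr11:95123409-95123456 on the plus strand in Dlx3, at chr6:6879526-6879657 and chr6:6878441-6878488 on the minus strand in Dlx5, and at chr6:6865140-6865271 and chr6:6867041-6867088 on the plus strand in Dlx6. The homeobox of Msx2 is a single stretch at chr13:53468370-53468549 on the minus strand. Of 180 homeobox bases Dlx5 and Dlx6 shared 132, and Dlx3 and Dlx5 129. Dlx6 and Msx2 shared 102, the fewest of these 6 pairs. The longest identical run between whole transcripts was 18 bases for Dlx5 with Dlx6 and 23 for Dlx3 with Dlx5, and the longest of these pairs was 44, between Dlx6 and Msx2. Stretches of 50 bases that also occur in transcripts of other genes made up 7.57% of the Dlx6 transcript, 0.906% of Runx2 and 0.624% of Msx2, and none were found in the other 6 members. The read length is not given in the sources used here.

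No member passed the threshold after partial discectomy. The adjusted p was under 0.05 for 0 of the 9 by the authors' deposited table, where 2.38% of all 23170 genes were called, 2.28% higher and 0.104% lower. The model behind these p-values is not named. At an unadjusted p under 0.05 there was 1 member, Atf4, on the higher side, where 10.9% of all genes lay higher and 3.31% lower, as listed in the authors' deposited table. The ratio, which is the discectomy mean divided by the sham mean, was above 1 for 4 members and below 1 for 5, as listed in the authors' deposited table. It ran from 0.697 for Msx1 to 1.46 for Atf4, as listed in the authors' deposited table. The median log2 ratio computed from the authors' deposited table was -0.14 over the members and 0.08 over all genes, of which 62.7% had a ratio above 1. Adjusted p-values of the members ran from 0.343 to 0.863, as listed in the authors' deposited table. The 95% limits reached down to 0.485 for Msx1 and up to 2.25 for Dlx3 in the authors' deposited table. They apply to the deposited ratios under the unnamed model. In bulk RNA, fewer cells of a type and less RNA per cell cannot be told apart.

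**Figure D1:**
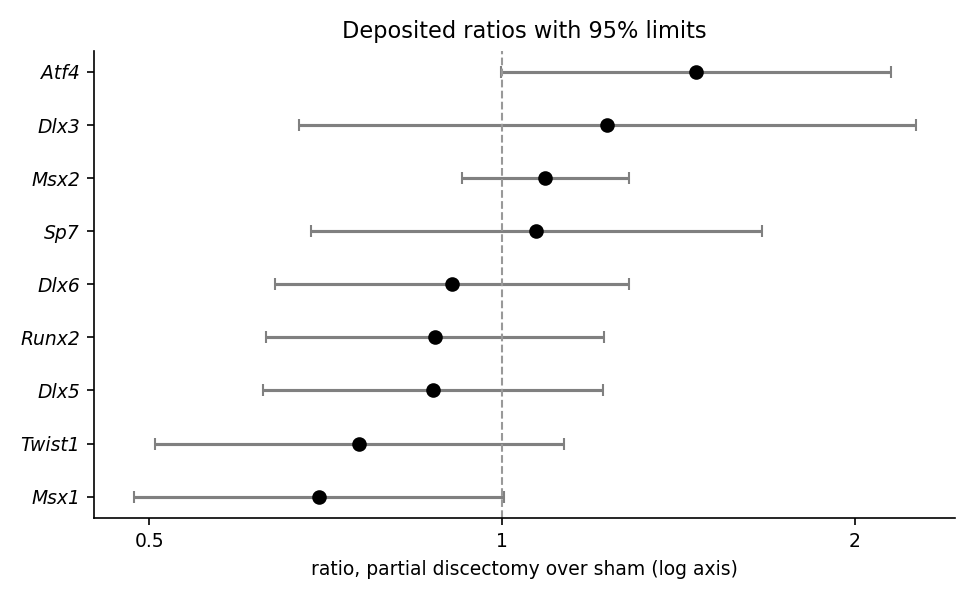
Deposited ratio of each factor, partial discectomy over sham, on a log axis, with bars for the deposited 95% limits over 3 libraries a group. Every bar crosses equal means, with Atf4 highest at 1.46 and Msx1 lowest at 0.697.

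Values of single libraries were not analysed here, so each member is described by what the table allows. The authors' deposited table gives a mean for each group, and the highest value and the geometric mean over all 6 libraries, in a normalized unit that it does not name and with a smallest group mean of exactly 1, called the floor. Nothing says whether these values are per length, so they are compared between genes only as ranks by mean and sums over lists. Those ranks and sums carry this limit. With a group's mean and its highest library known, the sum of its other 2 libraries is fixed, and the geometric mean cannot exceed the value of an even split. Where it did, the highest library was placed in the other group. For all 23170 genes at least 1 placement was possible. It was only in sham for 5070, only in partial discectomy for 10329 and in either for 7771. Among the members the highest library lay in sham for Runx2, Dlx6, Msx1 and Twist1, in partial discectomy for Atf4 and Msx2, and could lie in either for Sp7, Dlx3 and Dlx5. For 5 members, Sp7, Dlx3, Dlx5, Dlx6 and Twist1, the libraries of both groups overlapped in every set of values that the table allows, and for the other 4 this was undecided. No member had groups that lay apart in every such set. Overlap was not computed for all genes, so these counts cannot be set against a share of the whole.

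**Figure D2:**
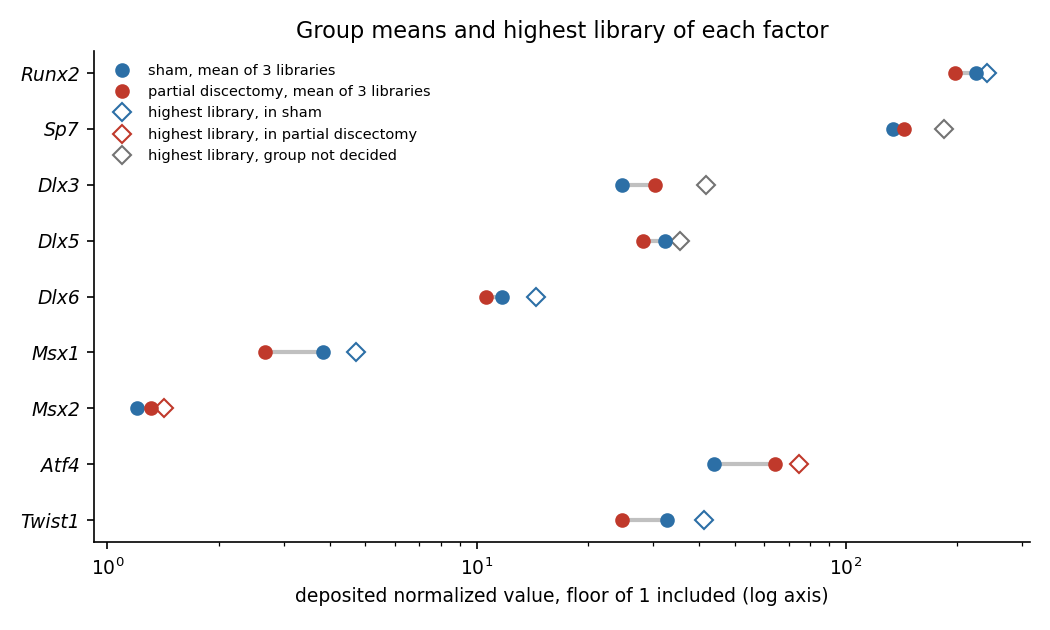
Deposited normalized value of each factor on a log axis with the floor of 1 included, as filled circles for the mean of 3 libraries in each group and an open diamond for the highest of the 6 libraries, coloured by the group it must belong to. The largest gap between circles relative to the mean is that of Atf4, at 44.0 in sham and 64.4 after partial discectomy, and Msx2 sits near the floor in both groups.

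Runx2, the earliest of the lineage factors, averaged 198 with discectomy and 226 with sham, as listed in the authors' deposited table. Its highest library, at 242, was a sham library by the values of the authors' deposited table. The other sham libraries then lay between 194 and 242, and those after partial discectomy between 167 and 231, as computed from the authors' deposited table. Whether the groups overlap cannot be decided from these ranges. The ratio of 0.877 had limits of 0.629 to 1.22 and an adjusted p of 0.730, as listed in the authors' deposited table. Runx2 lies on the minus strand of mm10 chromosome 17, 44495987 to 44814797, and shares this stretch with 4 genes on the opposite strand. Of these Runx2os2, a long noncoding RNA, was at 11.3 and 13.3 (ratio 0.854, unadjusted p = 0.226), and Runx2os1 and Runx2os3 had ratios of 0.967 and 0.869, as listed in the authors' deposited table. Supt3, which begins inside Runx2, had a ratio of 1.10, as listed in the authors' deposited table. It is not stated whether counting used the strand, so reads of overlapping genes may be mixed.

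The promoter of Runx2 is shown because RUNX proteins are known to bind their own gene there. The RefSeq table of promoters on GRCm38.p6, which holds windows from 250 bases before to 50 after a start, had entries for 5 of the 9 members, Runx2, Msx1, Msx2, Atf4 and Twist1. The stretch before the Runx2 start, chr17:44814628-44814877 on the minus strand, and a site after the start, chr17:44814587-44814608, read as follows, with the RUNX core TGTGGT or its reverse complement ACCACA in capitals:
Runx2 before start: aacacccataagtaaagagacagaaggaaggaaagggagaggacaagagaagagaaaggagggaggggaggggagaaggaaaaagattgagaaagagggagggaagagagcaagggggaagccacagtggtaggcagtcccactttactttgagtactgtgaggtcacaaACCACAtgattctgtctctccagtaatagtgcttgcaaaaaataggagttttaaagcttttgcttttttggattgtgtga
Runx2 after start: aacaACCACAgaACCACAagtg

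The 3 matches began at -80, 23 and 31 bases from the RefSeq start, which lies 170 bases inside the gene end that GENCODE gives. On both strands, 16.8% of 32851 promoter windows held this core at least once, and 0.183% held it at least 3 times. The promoters of Msx1, Msx2, Atf4 and Twist1 held none. The homeodomain core TAATTA was found once, in Msx2, against 5.29% of all windows, and GGGCGG, a core of Sp and Klf factors, once each in Msx1, Msx2 and Twist1, against 35.7%. TGATGNAA, a core of Atf4 dimers (3.97% of windows), and CATATG, an E-box (3.91%), were found in none of the 5. These are matches of letters and not sites of binding.

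Sp7, which takes Runx2-positive cells on to osteoblasts, stood at 144 with discectomy and 135 with sham, as listed in the authors' deposited table. Its highest library reached 184 and could belong to either group by the values of the authors' deposited table. The ratio was 1.07 with limits of 0.687 to 1.67 and an adjusted p of 0.863, as listed in the authors' deposited table. Without the highest library the ratio computed from the authors' deposited table would be 0.922 if that library was a partial discectomy library and 1.31 if it was sham. In the former case the sign of the Sp7 difference rests on 1 library. Sp7 lies at chromosome 15, 102356606 to 102367182, on the minus strand of mm10. Its neighbours Aaas and Sp1, another Sp factor, had ratios of 1.25 and 1.02, as listed in the authors' deposited table.

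The Dlx genes did not point one way. Dlx5, at chromosome 6, 6877805 to 6882085, stood at 28.2 with discectomy and 32.3 with sham, a ratio of 0.874 (0.626 to 1.22, adjusted p = 0.700), as listed in the authors' deposited table. Its partner Dlx6, at chromosome 6, 6863334 to 6868568, faces it on the other strand. Dlx6 stood at 10.6 and 11.7, a ratio of 0.906 (0.640 to 1.28, adjusted p = 0.821), as listed in the authors' deposited table. The highest Dlx6 library, at 14.5, was a sham library, and without it the ratio computed from the authors' deposited table was 1.03. Dlx3, which acts in bone, tooth and skin, lies at chromosome 11, 95120119 to 95125296, on the plus strand. It stood at 30.4 with discectomy and 24.7 with sham, a ratio of 1.23 (0.671 to 2.25, adjusted p = 0.706), as listed in the authors' deposited table. The limits of Dlx3 spanned 3.36-fold, the widest of the members, while those of Msx2 spanned 1.39-fold, the narrowest, as computed from the authors' deposited table. Msx2 lay near the floor, which draws its deposited ratio towards 1. The highest Dlx3 library made up 45.8% of the discectomy total if it was one of that group, and 56.3% of the sham total otherwise, by the authors' deposited table. Without it the ratio would be 0.999 or 1.88.

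The rest of the Dlx and Msx family was taken from a list of 6 entries, of which 5 have a row. The list also holds noncoding transcripts of Dlx loci, such as Dlx6os1, so its counts are not of family genes alone. By the authors' deposited table none was called, Dlx1 was lower at an unadjusted p under 0.05, and 4 of 5 ratios were below 1, with a median log2 ratio of -0.42. Of all genes 2.38% were called, 3.31% were lower at that unadjusted p, and 62.7% had a ratio above 1. Dlx1 was at 7.98 with discectomy and 11.9 with sham (ratio 0.671, 0.439 to 1.03, unadjusted p = 0.0494, adjusted p = 0.349), as listed in the authors' deposited table. Dlx6os1, a long noncoding RNA that overlaps Dlx6 on the opposite strand, was at 8.75 and 12.0 (ratio 0.732, 0.501 to 1.07), as listed in the authors' deposited table. The shorter Dlx6os2 in the same stretch had a ratio of 0.957, and Gm44094, the nearest gene on the other side of Dlx6, had 0.589 (0.410 to 0.844, unadjusted p = 0.00833, adjusted p = 0.150), as listed in the authors' deposited table. Gm44094 lies wholly inside Dlx6os1 on the same strand, so reads of both may be mixed. Dlx genes lie in linked pairs. The ratios of Dlx5 and Dlx6 were 0.874 and 0.906 and those of Dlx1 and Dlx2 0.671 and 0.753, while Dlx3 and its neighbour Dlx4 had 1.23 and 1.20, as listed in the authors' deposited table. The difference between these pairs was not tested, as it needs values per library.

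Msx1 had the lowest ratio of the members. It lies at chromosome 5, 37820485 to 37824583, on the minus strand, and stood at 2.67 with discectomy and 3.83 with sham, as listed in the authors' deposited table. Its highest library, at 4.71, was a sham library by the values of the authors' deposited table. The lowest sham library was then between 2.70 and 3.39 and the highest partial discectomy library between 2.69 and 3.32, as computed from the authors' deposited table, so whether the groups overlap cannot be decided. The ratio of 0.697 had limits of 0.485 to 1.00, an unadjusted p of 0.0509 and an adjusted p of 0.352, as listed in the authors' deposited table. With the floor subtracted from both means of the authors' deposited table it was 0.590, and without the highest library 0.788. Msx2, at chromosome 13, 53466884 to 53473074, is the close relative of Msx1 and was near the floor in both groups. It stood at 1.31 and 1.20, a ratio of 1.09 (0.924 to 1.28, adjusted p = 0.661), as listed in the authors' deposited table. Above the floor these means were 0.309 and 0.202, a ratio of 1.53, by the authors' deposited table. That lies outside the deposited limits, which therefore do not bound the change above the floor.

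Atf4, the factor of the amino acid and stress response, had the highest ratio. It lies at chromosome 15, 80255184 to 80257541, on the plus strand, and stood at 64.4 with discectomy and 44.0 with sham, as listed in the authors' deposited table. Its highest library, at 74.5, was a partial discectomy library by the values of the authors' deposited table, and the others of that group lay between 44.1 and 74.5. Sham libraries lay between 29.1 and 60.8, as computed from the authors' deposited table, and whether the groups overlap cannot be decided. The ratio of 1.46 had limits of 0.998 to 2.15, an unadjusted p of 0.0476 and an adjusted p of 0.343, as listed in the authors' deposited table. The p-value and the limits thus fall on different sides of their thresholds, as they do for 327 of the 23170 genes. Without the highest library the ratio computed from the authors' deposited table was 1.35.

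Genes around Atf4 were taken from a list of 22 that holds the kinases and phosphatase subunits that set its translation and genes that it activates. Of these 2 rose, none fell, and 20 of 22 ratios were above 1, with a median log2 ratio of 0.30 against 0.08 for all genes, as listed in the authors' deposited table. Over all genes 2.28% rose and 62.7% of ratios were above 1. Counting an unadjusted p under 0.05 gives 5 of 22 higher and 0 lower, against 10.9% and 3.31% of all genes. Ppp1r15a, the inducible phosphatase subunit that ends the stress signal, rose from 11.2 in sham to 22.3, a ratio of 1.98 (1.45 to 2.71, adjusted p = 0.0421), as listed in the authors' deposited table. Slc7a11, the cystine transporter, rose from 1.34 to 2.33, close to the floor, a ratio of 1.73 (1.34 to 2.25, adjusted p = 0.0418), as listed in the authors' deposited table. Eif2ak1, the kinase that senses heme in red cell precursors, was at 31.9 and 22.2 (ratio 1.44, adjusted p = 0.205), and the constant phosphatase subunit Ppp1r15b at 69.0 and 47.1 (ratio 1.46, adjusted p = 0.230), as listed in the authors' deposited table. Rps6ka3, a kinase that modifies Atf4 in osteoblasts, was at 98.2 and 99.9, a ratio of 0.983 (0.655 to 1.47), as listed in the authors' deposited table. In the same comparison 15 of 17 erythroid and 15 of 17 neutrophil genes rose. Their levels summed to 542 with discectomy and 132 with sham for the erythroid genes, and to 1521 and 115 for the neutrophil genes, above the floor, as listed in the authors' deposited table. The part of blood cells in the Atf4 values was not tested.

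Twist1, at chromosome 12, 33957671 to 33959829 on the plus strand, stood at 24.8 with discectomy and 32.8 with sham, as listed in the authors' deposited table. Its highest library, at 41.4, was a sham library by the values of the authors' deposited table, and libraries of both groups overlapped. The ratio of 0.756 had limits of 0.506 to 1.13 and an adjusted p of 0.505, as listed in the authors' deposited table. Without the highest library the ratio computed from the authors' deposited table was 0.870. Hdac9, the neighbour of Twist1, had a ratio of 1.02 (0.721 to 1.44), as listed in the authors' deposited table. Twist1 binds DNA together with E proteins. Of 5 such partners and relatives with a row none was called, against 2.38% of all genes. Tcf3, an E protein also used by lymphoid precursors, was at 35.3 and 23.3 (ratio 1.52, 1.04 to 2.21, unadjusted p = 0.0257, adjusted p = 0.259), and Tcf4 and Tcf12 had ratios of 0.760 and 0.868, as listed in the authors' deposited table.

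Partners and regulators of Runx2 showed no call either, where 2.38% of all genes were called and 62.7% had a ratio above 1. Of 12 genes 6 had a ratio above 1 by the authors' deposited table, where the median log2 ratio was -0.05, and counting an unadjusted p under 0.05 gives 0 higher and 2 lower, against 10.9% and 3.31% of all genes. Zfp521, a zinc finger protein that holds Runx2 back, was at 67.4 with discectomy and 122 with sham, a ratio of 0.550 (0.366 to 0.828, adjusted p = 0.172), as listed in the authors' deposited table. Zbtb16 was at 30.9 and 58.1, a ratio of 0.532 (0.298 to 0.949, adjusted p = 0.320), as listed in the authors' deposited table. The highest library of both genes was a sham library, by the authors' deposited table. Runx1, the blood and skeletal paralog, had a ratio of 1.14 (0.850 to 1.53), as listed in the authors' deposited table.

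Jaw patterning genes other than the members lay mostly below equal means, with no call. Of 29 genes on this list 26 have a row, and 19 of the 26 ratios were below 1, with a median log2 ratio of -0.23, as listed in the authors' deposited table. Of all genes 62.7% had a ratio above 1, and 2.38% were called. Counting an unadjusted p under 0.05 gives 0 higher and 4 of 26 lower, that is Prrx2, Ednra, Eya1 and Alx4, against 10.9% and 3.31% of all genes. Ednra, the endothelin receptor that sets lower jaw identity upstream of the Dlx5 and Dlx6 genes, was at 9.66 with discectomy and 16.7 with sham, a ratio of 0.579 (0.409 to 0.820, adjusted p = 0.141), as listed in the authors' deposited table. The homeobox genes Prrx2 and Alx4 had ratios of 0.506 (0.335 to 0.763, adjusted p = 0.113) and 0.719 (0.521 to 0.994, adjusted p = 0.318), as listed in the authors' deposited table. Eya1, a coactivator in muscle and jaw precursors, was at 9.77 and 21.5 (ratio 0.455, 0.255 to 0.812), and its highest library, a sham library at 36.2, exceeded the whole partial discectomy total, as listed in the authors' deposited table. Without that library the Eya1 ratio was 0.694. Prrx1 and Mef2c, the highest of the list by mean, had ratios of 0.612 (0.379 to 0.989) and 1.16, as listed in the authors' deposited table. For 14 of the 26 genes the highest library was in sham and for 2 in partial discectomy, by the authors' deposited table. The same counts over all 23170 genes were 5070 and 10329. Leaving out the highest sham library of those 14 can only raise their ratios. It took their median log2 ratio from -0.40 to -0.15, with 13 of the 14 ratios still below 1. All 14 had a ratio below 1 to begin with, so they do not stand for the list, which also holds 7 ratios above 1. Skeletal muscle genes, which mark tissue beside the bone, had 10 of 10 ratios below 1 in the same comparison, with no call. Their levels summed to 253 with discectomy and 404 with sham above the floor, as listed in the authors' deposited table. For 9 of the 10 the highest library was a sham library, as for 5070 of all 23170 genes. It held 40.4% to 69.0% of the sham total, and their unadjusted p ran from 0.0561 to 0.923, by the authors' deposited table. Leaving it out can only raise these ratios, and without it 8 of these 9 were above 1. For those 8 genes the direction in the group means thus depended on 1 library. For Myh2, a myosin of fast muscle and the highest of the list by mean, the ratio went from 0.528 to 1.07. The part of that tissue in the ratios of the patterning genes was not tested.

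The products that osteoblasts and osteocytes make under Runx2 and Sp7 had higher means after partial discectomy, and none was called. All 18 genes of this list had a ratio above 1 by the authors' deposited table, from 1.16 to 2.36, with a median log2 ratio of 0.66. Counting an unadjusted p under 0.05 also gives 0 in either direction, against 10.9% higher and 3.31% lower of all genes. Of all genes 2.38% were called, and 62.7% had a ratio above 1. The limits of these genes were wide, with a median span of 6.00-fold, against 2.07-fold for the 9 factors, as computed from the authors' deposited table. For 13 of the 18 the highest library was a partial discectomy library, as for 10329 of all 23170 genes. It held between 37.9% and 59.5% of that group's total by the authors' deposited table. Leaving that library out can only lower these ratios. It took the median log2 ratio of these 13 genes from 0.76 to 0.21, with 11 of 13 ratios still above 1. The 2 highest products by mean, Col1a1 and Col1a2 of the bone collagen, had ratios of 1.23 (0.134 to 11.3) and 1.30 (0.229 to 7.42), as listed in the authors' deposited table. Their highest libraries could lie in either group, and without it the Col1a1 ratio would be 0.977 or 1.95. Set against the median of this list, all 9 factors had a ratio below 1, from 0.442 for Msx1 to 0.929 for Atf4. That median includes the highest libraries. The log2 ratios of Atf4 and Dlx3, 0.55 and 0.30, lay above the 0.21 of the 13 products without their highest library. This sets unlike values side by side, as both factors keep their own highest library there. Without it the Atf4 ratio was 1.35. That of Dlx3 would be 0.999 if its highest library was partial discectomy and 1.88 if it was sham. The difference between the factors and the products was not tested, as it needs values per library.

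**Figure D3:**
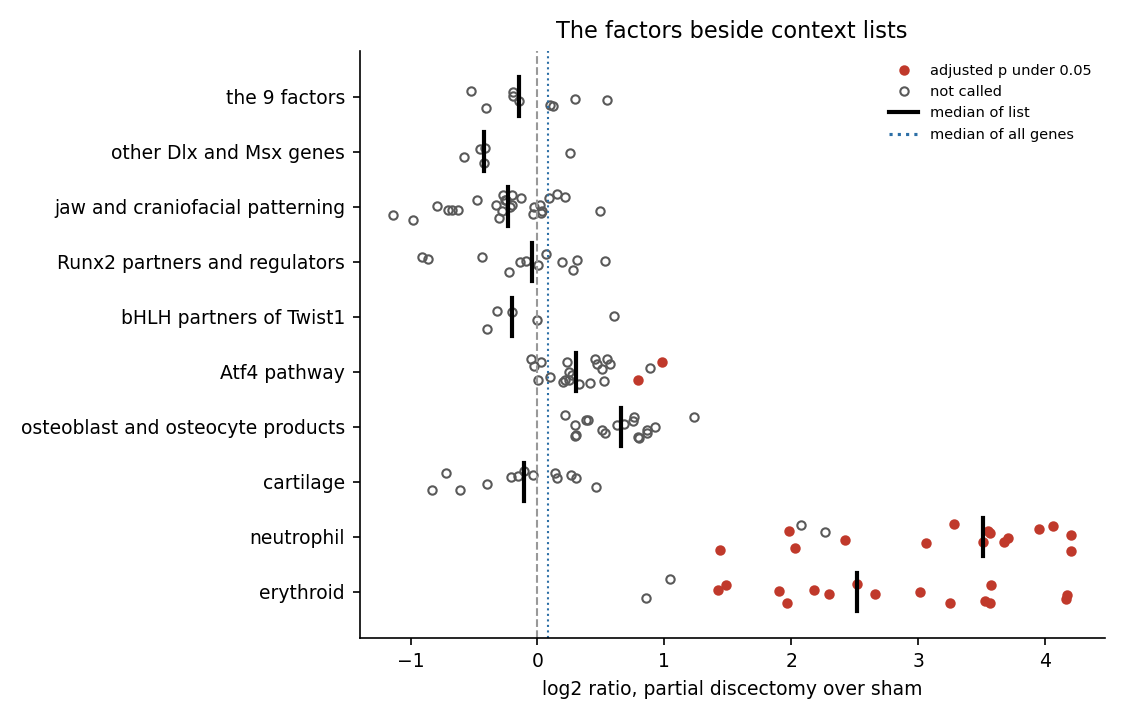
Log2 ratio of each gene, partial discectomy over sham, for the 9 factors and for lists of related genes and cell types, with filled points for an adjusted p under 0.05, a bar at each list's median and a dotted line at the median of all genes, 0.08. The factors centre on -0.14, the bone products on 0.66, and the neutrophil and erythroid genes on 3.51 and 2.52.

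Markers of the labelled tissue were present. The 18 bone products summed to 72437 with discectomy and 55566 with sham above the floor, from means of the authors' deposited table. Of 8 tooth matrix genes, in whose cells Msx and Dlx genes are also active, 2 have a row, and these summed to 0.281 and 0.293, from the same columns of the authors' deposited table. Of 10 genes of surface epithelium, where Dlx3 and Msx2 also act, 6 have a row, and they summed to 3.75 and 3.17 by the authors' deposited table. Cartilage genes had 5 of 13 ratios above 1 with no call, against 62.7% above 1 and 2.38% called over all genes. They summed to 6241 with discectomy and 5512 with sham above the floor, so RNA of cartilage genes was present as well. Of 39 Hox genes 7 have a row in the authors' deposited table, and the highest of them by mean, Hoxb4, which blood stem cells express, was at 2.50 and 1.70 (ratio 1.47, 1.05 to 2.07, adjusted p = 0.304).

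Directions of the smaller differences depended on the scale and on 1 library. Centred on the ratio of the summed means of the authors' deposited table, which is 0.13 on the log2 scale, Sp7 and Msx2 moved to ratios of 0.976 and 0.993, below 1. Runx2, Dlx5, Msx1 and Twist1 kept a ratio below 1 without the highest library. They also kept it under each of the scales tried, but none of these scales could lift a ratio past 1. Shifting both means keeps the side of 1, and each centring value was positive on the log2 scale. Atf4 kept a ratio above 1 under all of these choices except against the bone products.

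**Figure D4:**
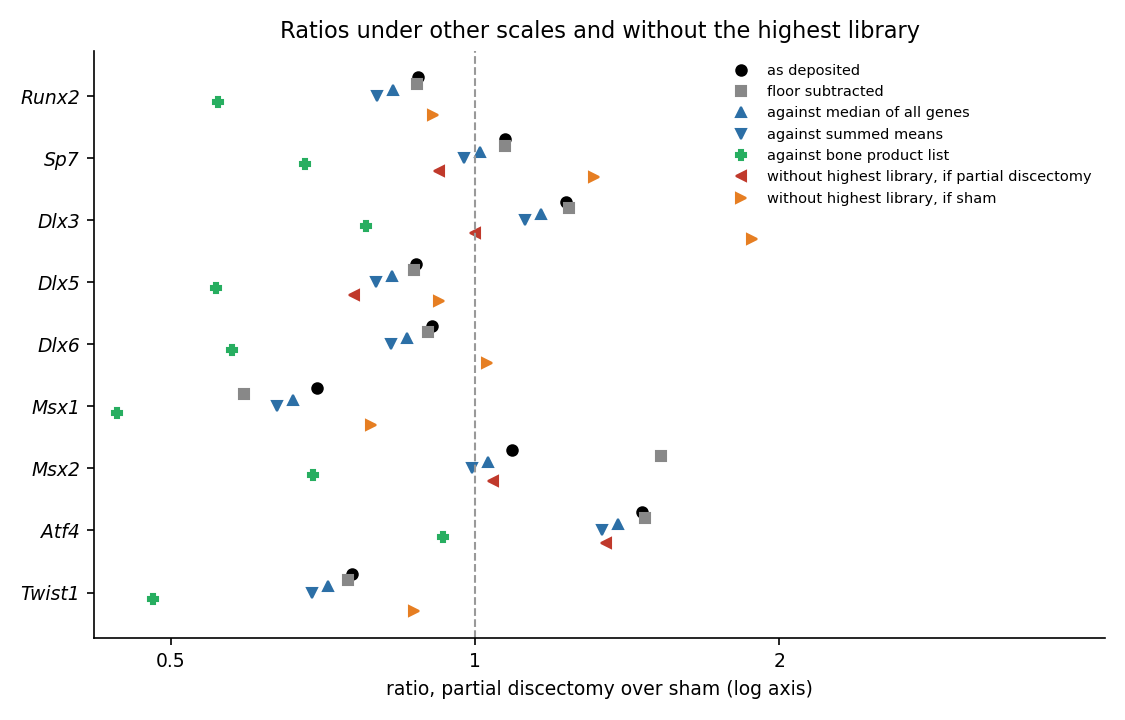
Ratio of each factor on a log axis as deposited and under other choices, with 1 symbol for each choice, and without the highest library where its group allows. Symbols for Sp7, Dlx3, Dlx6, Msx2 and Atf4 fall on both sides of 1, and those for Runx2, Dlx5, Msx1 and Twist1 stay below it. The other scales could not lift a ratio past 1.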

How the data were processed

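RNA of the mandibular condyle was sequenced in 6 libraries, 3 of sham operation and 3 of partial discectomy, grouped here by their titles. STAR 2.6.1d and mm10 were used, per the submitters' processing notes; of the counter, gene filter, normalization and test nothing is given in the sources used here. The authors' deposited table holds signal columns (group means, and the sum, highest value, geometric and arithmetic mean over 6 libraries, with a floor of 1), and a file of gene positions was not used. The deposited ratio divides the discectomy mean by the sham mean, and the deposited log2 value is its logarithm. The deposited fold change and its 95% limits, signed and so entered as a score, were turned into ratios. The deposited p-value has an unnamed model, and the adjusted p equalled the Benjamini-Hochberg adjustment over all 23170 genes. A planned count test needs values per library, so a call rests on the authors' adjusted p under 0.05. Depth is unknown, so no counting interval is given.

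Python 3.11.15 was used, with pandas 2.3.3 and numpy 2.4.6. The placement of the highest library and the ranges of the others assume that all columns summarise the same 6 values, and were tested on simulated data. Gene ends are 1 below the deposited stop, which exceeded the GENCODE M21 end by 1 for 99.2% of 22613 genes matched by symbol. The members and lists were chosen with earlier results of these data known. Genes named in the text are all members and, not in full, their neighbours and overlapping genes and those a rule takes from each list: up to 4 genes each at an adjusted and at an unadjusted p under 0.05 and the 2 with the highest mean (Dlx2, the partner of Dlx1, was named after its values were seen). A gene that this rule takes and a homeobox are not reported here. Leaving out the highest library for muscle, patterning and tendon genes and for Col1a1 was chosen after seeing the data.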

Additional observations from a re-analysis of the deposited data

How the results depend on the processing

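No member was called when p was adjusted over genes whose mean exceeded the floor by 1 or more (8 members) or by 5 or more (7 members), over protein-coding genes, or by the deposited limits, and 1 was called at an unadjusted p under 0.05. Over all genes, 528 higher and 24 lower calls became 233 and 10 with the minimum of 5 above the floor, where 10286 genes were tested, 2532 and 767 at an unadjusted p, and 2566 and 832 by the limits. Centring on the median of all genes turned no member's direction. Subtracting the floor or adding 1 changes both means by the same amount and cannot turn a direction. Each centring value was positive on the log2 scale, so centring could only lower a ratio. Centring on the summed group means turned Sp7 (0.976) and Msx2 (0.993). Centring on the bone products, whose median log2 ratio is 0.66 with their highest libraries included, turned Sp7 (0.679), Dlx3 (0.780), Msx2 (0.691) and Atf4 (0.929). Without the highest library, ratios turned for Sp7 (0.922) and Dlx3 (0.999) if it was a partial discectomy library and for Dlx6 (1.03), where it was sham. No paired analysis was possible because the table carries no values per replicate number, and leaving out each replicate in turn was not run for the same reason. Depth is unknown.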

Other observations

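Sox5 of the cartilage list and Thbs4 and Kera of the tendon list had low ratios with limits below 1 and no call. These lists as a whole did not point one way. Ratios were below 1 for 8 of 13 cartilage and 3 of 6 tendon genes, with median log2 ratios of -0.10 and -0.05. Of all genes 62.7% had a ratio above 1. Sox5, a cartilage factor, was at 41.0 with discectomy and 72.9 with sham, a ratio of 0.561 (0.373 to 0.846, adjusted p = 0.186), as listed in the authors' deposited table. Thbs4 and Kera of tendon and fibrous tissue had ratios of 0.368 (0.201 to 0.673, adjusted p = 0.139) and 0.345 (0.170 to 0.699, adjusted p = 0.156), as listed in the authors' deposited table. Without the highest library these ratios were 0.563 for Thbs4 and 0.513 for Kera. The highest library of these 3 genes was a sham library by the same table, as it was for Msx1, Twist1, Zfp521, Prrx2 and Ednra. Whether it is the same library from gene to gene cannot be read from the table. Cdh1, an adhesion protein of epithelium, was close to the floor at 1.80 and 1.07 (ratio 1.68, 1.22 to 2.31, adjusted p = 0.135), as listed in the authors' deposited table. The surface epithelium list had 3 ratios above 1 and 3 below, with a median log2 ratio of 0.02.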
